A study of Drosophila melanogaster with 9 samples.

Results

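Ubx-N51A is a form of the Drosophila Hox protein Ultrabithorax (Ubx) in which an asparagine of the homeodomain is replaced by alanine. The transcripts of S2R+ cells that expressed it were compared with those of cells that expressed nuclear GFP, 3 libraries against 3, which are 6 of the 9 libraries of the series. The other 3 libraries came from cells with wild-type Ubx (Ubx-WT), and they serve here to show where Ubx-N51A differs from the intact protein. S2R+ is a line of embryonic origin with features of haemocytes, the blood cells of the fly. All groups carried their protein through the Gal4-UAS system with an actin promoter, so every group shares that driver. One passage of the labels names a myc tag on both Ubx proteins and another a GFP tag, and the tag is not settled here. Of 4 independent replicates per group, 3 were kept on the basis of a principal component analysis, which can narrow the spread that p-values rest on. A word on sorting in the file names differs from group to group, and if it refers to cells it cannot be told apart from the proteins expressed.

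Hox proteins are transcription factors that give the body segments their identity, and Ubx is known for its action in the posterior thorax and the first abdominal segment. They bind DNA through the homeodomain, a fold of helices whose recognition helix lies in the major groove. The asparagine changed in Ubx-N51A is nearly invariant among homeodomains and contacts an adenine of the binding site, so its replacement is a standard way to weaken DNA binding. The comparison with GFP addresses which transcript changes remained or appeared when that residue was changed. Levels below are scaled read counts (CPM, counts scaled to the reads in genes of each library), given per library. A gene was called at an adjusted p under 0.05, from edgeR's quasi-likelihood test with Benjamini-Hochberg adjustment over the 9207 genes tested, and "rose" and "fell" are used of called genes.

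Between 30967554 and 64221439 reads fell in genes in the 6 libraries, and the shallowest of them holds about 31 reads per CPM. Replicates of a group correlated at 0.9946 or more (log scale, across genes). The first principal component, with 48.09% of the variance, set the Ubx-WT libraries apart (25.124 to 26.373). On it Ubx-N51A (-9.125 to -4.513) also lay apart from GFP (-20.506 to -16.617), on the side of Ubx-WT. The second, with 19.31%, separated Ubx-N51A from both other groups. The summed haemocyte markers covered 1397 to 1505 CPM in control cells and 1405 to 1476 in mutant cells, and 7 of the 11 markers exceeded 10 CPM in every library. NimC1, a receptor of mature plasmatocytes, stood at 0 to 0.0898 CPM and He, another haemocyte marker of the list, at 0.365 to 0.929. Sums of the other marker lists overlapped between the groups, except for muscle, whose sums were 83.2 to 94.7 CPM in mutant cells and 95.9 to 101 in control cells. Of the muscle markers sls, for a titin-like protein, was called (log2 change -0.65; edgeR adjusted p = 0.00475), and of the haemocyte markers Col4a1, a collagen IV chain (-0.25; edgeR adjusted p = 0.035), and what part such cells have in other results was not tested. The call of Col4a1 was lost without any 1 of GFP replicates 2 and 3, Ubx-WT replicate 3 and Ubx-N51A replicates 1 and 3. Mhc, the muscle myosin gene, stayed at or below 0.165 CPM and the sarcomeric actin gene Act88F at or below 0.075. Counts from whole cultures cannot tell a lower amount of RNA per cell from fewer cells with that RNA.

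Ubx reads checked the labels. They numbered 51719, 76367 and 145254 with Ubx-N51A, which is 1721, 2053 and 2275 CPM, against 14, 8 and 89 reads in control cells. Introduced and endogenous Ubx cannot be separated in these counts. Ubx-WT libraries held 1709, 1384 and 1498 CPM, so every Ubx-N51A library lay above every Ubx-WT library. The log2 difference between the proteins of 0.40 (SE 0.182) did not pass the test (edgeR adjusted p = 0.287), which does not show equal levels. What part the Ubx level has in other differences between the proteins was not tested. The other Hox genes were at the limit of detection in Ubx-N51A cells. Their reads summed over the 3 libraries were 2 for lab, 2 for pb, 0 for Dfd, 0 for Scr, 3 for Antp, 8 for abd-A and 2 for Abd-B. Abd-B, the Hox gene of the posterior abdomen, had 1 read in the control and 53 reads in the wild-type libraries. It passed the filter on low counts only through the Ubx-WT libraries, so its tests add no support. With 1 and 2 reads, its levels with GFP and Ubx-N51A cannot be compared. The Hox cofactor gene exd, at 207 CPM with GFP and 222 with Ubx-N51A, and the zinc finger gene tsh, at 200 and 206, did not pass the test against GFP.

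With Ubx-N51A 745 of 9207 genes were called against GFP (8.09% of those tested), 311 higher (3.38%) and 434 lower (4.71%). The changes were mostly small: 74.9% of the rises and 81.8% of the falls stayed under 1.5-fold, and 94 genes (1.02%) were called with at least 2-fold, 47 in each direction. Of these 47 rises 31 lay under 2 CPM in the higher group, and of the 47 falls 25 did. Calls were kept in every fit that left out 1 library by 30 of the 47 rises and 36 of the 47 falls. Among all tested genes 29.4% had every library of one group above every library of the other. The largest changes were a rise of the aquaporin gene Prip and falls of the cuticle gene Cpr49Ac and the cytokine gene upd1, leaving Ubx aside. Genes that fell had higher levels than those that rose, with a median of 106 CPM in the higher group against 30.3, where all tested genes had 32.3. They were also longer, with a median summed exon length of 2842 bases against 2153 for rises and 2006 for all tested genes with a known length. Falls were called for 1.43% of the tenth of genes with the shortest exons and for 6.32% of the tenth with the longest, whose median log2 differences over all genes were 0.07 and -0.01.

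**Figure D1:**
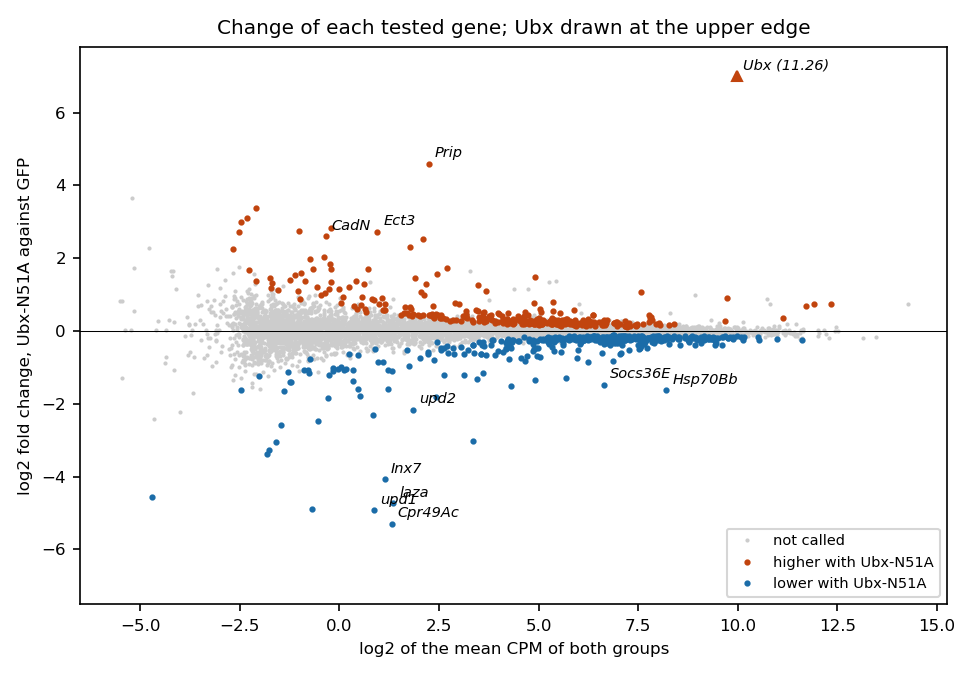
The log2 fold change of Ubx-N51A against GFP (y axis) is plotted against the log2 mean CPM of both groups (x axis) for each tested gene, with called rises in orange, called falls in blue and other genes in grey. Prip at 4.60 and Ubx at 11.26, drawn at the upper edge, stand above all other named rises, and Cpr49Ac at -5.29 and upd1 at -4.91 lie at the bottom.

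The direct contrast with Ubx-WT, in which 473 genes (5.14%) were called, 113 higher (1.23%) and 360 lower (3.91%), divides the 745 genes into 3 classes. For 648 of them (87%; 238 rose and 410 fell) Ubx-N51A and Ubx-WT did not differ past the threshold, which does not show that the proteins acted alike. In 36 genes (4.83%) the wild-type protein lay farther from GFP in the same direction, and 34 of these were rises. The remaining 61 genes (8.19%), of which 39 rose and 22 fell, were displaced from both other groups to the same side, so Ubx-N51A differed from GFP and from Ubx-WT in the same direction. Both contrasts use the Ubx-N51A libraries, so a chance shift of these libraries enters both. The classes also rest on single libraries: with 1 library left out at a time, the displaced genes numbered 29 when Ubx-WT replicate 3 was left out, 30 for Ubx-N51A replicate 2, 32 for GFP replicate 2 and 35 for Ubx-N51A replicate 1.

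Prip, a water channel of the aquaporin family (FBgn0033635; 2R:11436243-11442216 on the plus strand, assembly BDGP6.54), gave the largest rise of that class. In Ubx-N51A cells it stood at 8.49, 8.93 and 9.68 CPM (mean 9.03 ± 0.603 SD, n = 3). Control cells held 0.364, 0.357 and 0.39 CPM, and Ubx-WT cells 1.28, 0.977 and 1.02. The groups did not overlap, and the mutant stood highest in all 3 of its libraries. The log2 fold change was 4.60 against GFP (SE 0.146; edgeR adjusted p = 9.24e-10) and 3.06 against Ubx-WT (SE 0.118; edgeR adjusted p = 4.42e-09). Its tested neighbour E(Pc), a chromatin protein gene, changed by -0.08 (edgeR adjusted p = 0.305), and the nearby aquaporin gene Drip had 7 reads over the GFP and 7 over the Ubx-N51A libraries. Of 16 tested genes for aquaporins and solute carriers 2 rose and 1 fell (18.8% called, against 8.09% of all tested genes). Their median log2 difference was 0.03, against 0.01 for all genes.

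Ect3 (FBgn0260746; 3R:11999278-12003516), which encodes a beta-galactosidase, stood at 0.5, 0.688 and 0.371 CPM in control cells and at 0.475, 0.578 and 0.496 in wild-type Ubx cells. It reached 2.83, 3.07 and 4.1 CPM with Ubx-N51A, above every other library. The log2 fold change was 2.73 against GFP (SE 0.22; edgeR adjusted p = 7.9e-06) and 2.71 against Ubx-WT (SE 0.213; edgeR adjusted p = 4.18e-06), while Ubx-WT and GFP differed by 0.02 (edgeR adjusted p = 0.967). Of its neighbours, KLHL18 changed by 0.07, GCC185 by 0.00 and mfas by -0.12, none of them called, and the overlapping gene Tk on the opposite strand had 4 and 2 reads. Among 15 tested glycosidases and lysosomal enzymes 1 gene rose, which is Ect3, and none fell (6.67% called, near the 8.09% of all tested genes).

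Other rises displaced from both groups included genes for proteins of the cell surface and for secreted proteins. The class is not confined to these, and the median of its 39 rises was 0.42. It also holds the ribosomal protein gene RpLP2 (0.36) and the mitochondrial ribosomal protein gene mRpL27 (0.25), both outside the rule for named genes. The TRP channel gene pain, known for nociception, rose by 1.85 (SE 0.238; edgeR adjusted p = 0.000494) from 0.5, 0.229 and 0.371 CPM to 1.26, 1.24 and 1.47, and it lay 1.75 above Ubx-WT. The lectin gene rgn, named for its part in disc regeneration, went from 2.52, 2.83 and 2.91 to 7.75, 7.99 and 8.5 CPM, a rise of 1.56 (SE 0.0932; edgeR adjusted p = 7.84e-07). The secreted metalloprotease gene AdamTS-B went from 6.29, 6.47 and 7.06 to 12.6, 17.3 and 17.5 CPM, a rise of 1.27 (SE 0.111; edgeR adjusted p = 1.68e-05). For each of these genes no library of GFP reached the lowest library of Ubx-N51A. The rule for the largest changes required such separation, which 29.4% of all tested genes had in one direction or the other, so it adds no support. The gene wrapper, for an immunoglobulin-domain protein of midline glia, rose by 1.30, and Idgf4 and Idgf6, for chitinase-like growth factors of imaginal discs, rose by 1.60 and 0.28. Idgf4 remained low, at 34 reads in the control group and 103 in the mutant group.

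The neighbouring genes otk and otk2, which encode receptor-like proteins that take part in Wnt signalling, lie 3299 bases apart on 2R. For otk control libraries held 30.9, 30.4 and 28.6 CPM, Ubx-WT libraries 39.3, 42.1 and 40.1, and mutant libraries 47.8, 53.5 and 53.8. The 3 groups did not overlap, which the rule for the largest changes required for Ubx-N51A and GFP, and Ubx-WT stood between the others. The log2 rise with Ubx-N51A was 0.79 (SE 0.0564; edgeR adjusted p = 3.1e-06), against 0.44 with Ubx-WT. For otk2 the corresponding rises were 1.08 (edgeR adjusted p = 0.000175) and 0.53, and Ubx-N51A exceeded Ubx-WT by 0.55 (edgeR adjusted p = 0.0121). RapGAP1, which switches off the GTPase Rap1, rose by 0.76 and lay 0.47 above Ubx-WT. The call of hoe1, at 0.92, was lost without GFP replicate 3, Ubx-N51A replicate 2 or Ubx-N51A replicate 3.

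Falls displaced from both groups include a set that moved in the opposite direction with Ubx-WT. The Ubx-WT libraries gave 1524 calls against the same GFP libraries (16.6%), 803 higher (8.72%) and 721 lower (7.83%). In 6 genes Ubx-N51A lay below GFP and Ubx-WT above it, each called, and no gene was called in the reverse order. The lipid phosphate phosphatase gene wun2 (2R:9414342-9417846), known for guiding germ cells, had 5.42, 6.51 and 6.58 CPM in mutant cells, against 20, 12.8 and 13.9 in control cells and 31.2, 30.7 and 32.6 in Ubx-WT cells. Its log2 change was -1.32 with Ubx-N51A (SE 0.144; edgeR adjusted p = 0.00013) and 1.02 with Ubx-WT (SE 0.125; edgeR adjusted p = 0.00012), measured against the same GFP libraries. The adjacent paralogue wun, 878 bases away, changed by 0.04 with Ubx-N51A (edgeR adjusted p = 0.732). Tig, which encodes tiggrin, a matrix ligand of integrins, stood at 15.1, 19.4 and 20.4 CPM in mutant cells, against 30.3, 31 and 36.4 in control cells and 43.4, 37.8 and 42.1 in Ubx-WT cells. The values of the groups did not overlap, which the rule for genes beyond both groups required for Ubx-N51A and GFP. The log2 changes against GFP were -0.82 with Ubx-N51A (edgeR adjusted p = 0.000385) and 0.33 with Ubx-WT (edgeR adjusted p = 0.0314).

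The others of the 6 are dve, chas, CG2444 and CG14866, of which dve, CG2444 and CG14866 are outside the rule for named genes. The homeodomain gene dve had 5, 4 and 15 reads in mutant libraries, 18, 26 and 33 in control libraries and 43, 60 and 65 in Ubx-WT libraries, a log2 change of -1.64 with the mutant (SE 0.328; edgeR adjusted p = 0.00872). CG2444 changed by -1.60 with Ubx-N51A and by 0.64 with Ubx-WT. CG14866 had 0 reads in each of the 3 Ubx-N51A libraries, where a count of 0 allows up to 3 reads, while control libraries held 3, 1 and 4 and Ubx-WT libraries 38, 37 and 63. No fold change is given for it, and its call against GFP was lost with any of the 9 libraries left out. For chas the change of -0.51 was lost without GFP replicate 2, GFP replicate 3, Ubx-WT replicate 3, Ubx-N51A replicate 1 or Ubx-N51A replicate 2.

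Further genes fell with Ubx-N51A below both other groups. Mmp1, a matrix metalloprotease, went from 24, 22.5 and 25.9 CPM with GFP to 11.3, 15 and 15.9, a log2 change of -0.76 (SE 0.0993; edgeR adjusted p = 0.000543), and Ubx-WT lay between them at 17.8, 18.5 and 19.4. The fall of cv-2, a secreted BMP-binding protein, was -0.56 (edgeR adjusted p = 0.00125) and that of T48, a transmembrane protein of gastrulation, -0.47 (edgeR adjusted p = 0.00203). Gpo1, the mitochondrial glycerol-3-phosphate dehydrogenase gene, fell by 0.34 on the log2 scale and gas by 0.28. Among 8 tested matrix proteases and inhibitors 2 rose, AdamTS-B and the inhibitor gene Timp (1.37), and 3 fell, Mmp1, Meltrin (-0.26) and the inhibitor gene Reck (-0.26). The call of Timp was lost without GFP replicate 1 or GFP replicate 3, and that of Reck without GFP replicate 2. The median over the 8 was 0.01, as for all genes, and 62.5% were called, against 8.09% of all tested genes.

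**Figure D2:**
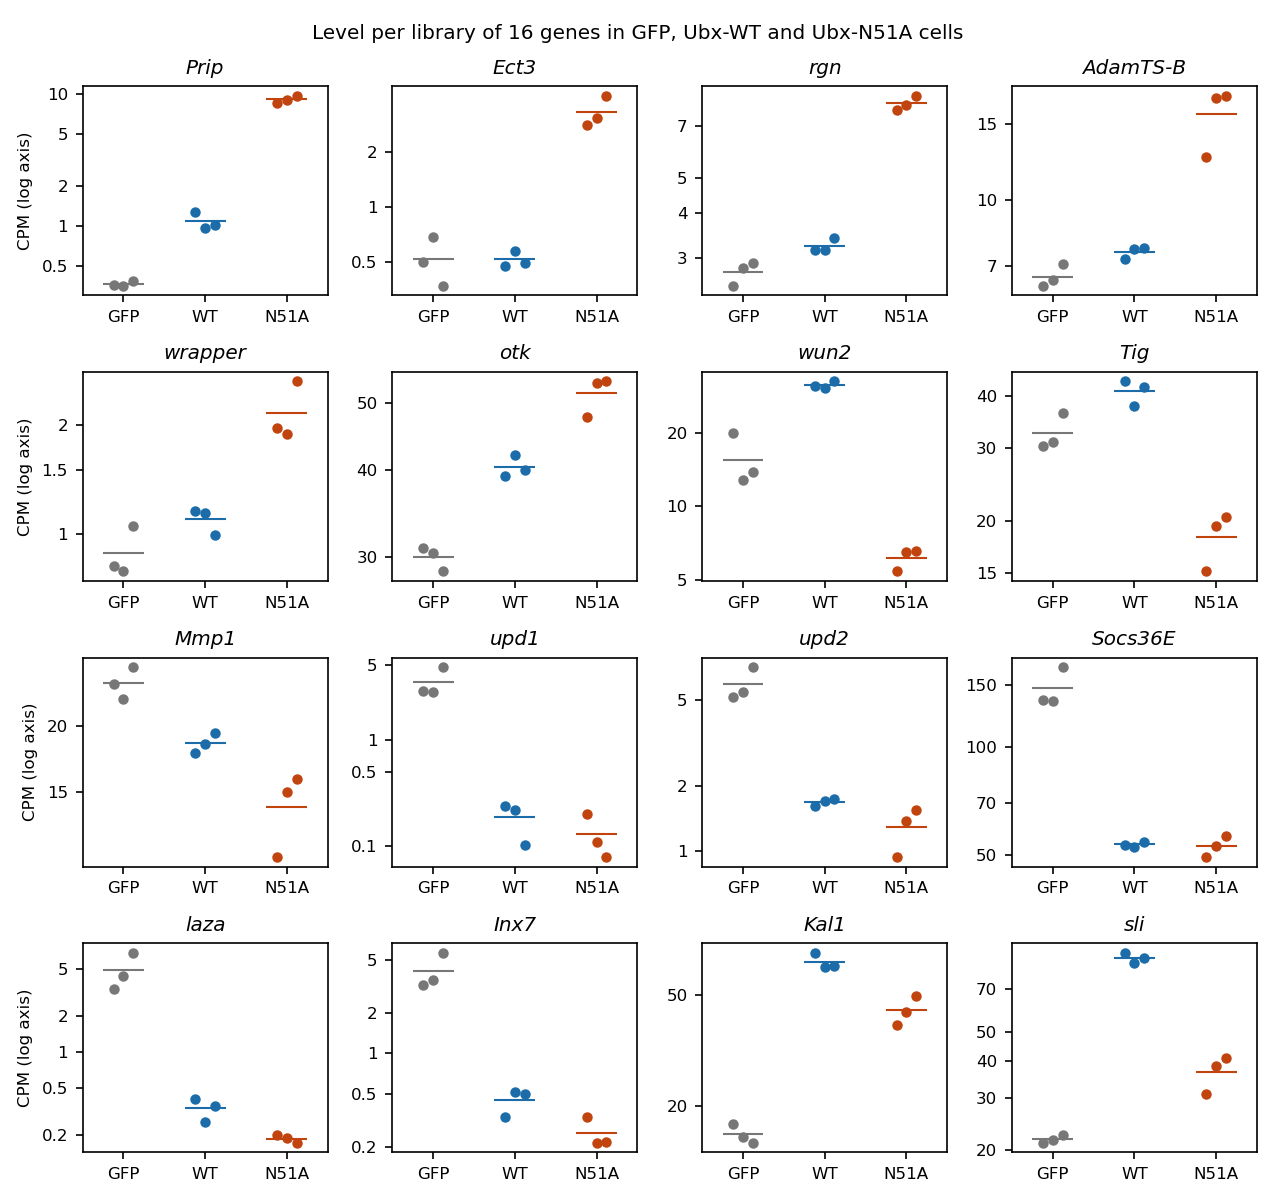
Each point is the level of 1 library (CPM, log axis, with its own range in each panel) and each bar is the mean of 3 libraries, for 16 genes in GFP (grey), Ubx-WT (blue) and Ubx-N51A (orange) cells. Prip at 8.49 to 9.68 CPM and Ect3 at 2.83 to 4.1 CPM are highest with Ubx-N51A, wun2 at 5.42 to 6.58 CPM is lowest there, upd1 and laza are low with both Ubx proteins, and Kal1 and sli are intermediate.

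In the 36 genes where Ubx-WT lay farther from GFP, a smaller change remained with the mutant. Kal1, which encodes an anosmin-like matrix protein, stood at 17.2, 15.4 and 14.7 CPM with GFP, 39.2, 43.7 and 49.7 with Ubx-N51A and 71.3, 63.3 and 64 with Ubx-WT. Its rise was 1.49 with Ubx-N51A (SE 0.0878; edgeR adjusted p = 7.84e-07) and lay 0.57 below that of Ubx-WT (log2 difference -0.57; edgeR adjusted p = 0.000718). The Slit gene sli, for the ligand of Robo receptors, held 21.2, 21.7 and 22.5 CPM with GFP, 30.9, 38.6 and 40.8 with Ubx-N51A and 92.4, 85.1 and 88.4 with Ubx-WT. All libraries of the mutant thus exceeded those of the control and stayed below those of the wild type. The rise of sli was 0.76 with Ubx-N51A (SE 0.0832; edgeR adjusted p = 0.00013), and the mutant lay below the wild type by a log2 difference of -1.26 (edgeR adjusted p = 5.21e-07).

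Single genes of signalling pathways had the same order of the groups. The secreted BMP modulator gene magu rose by 1.45 with Ubx-N51A and 1.88 with Ubx-WT, the type II BMP receptor gene wit by 1.15 and 1.80, and the Wingless receptor gene fz2 by 0.54 and 0.97. The lists of these pathways did not move one way. Of 20 tested genes of Dpp and activin signalling, a list without magu, 2 rose (wit and tok) and 2 fell (cv-2 and shn). That is 20% called, against 8.09% of all tested genes. The median was 0.05, and 4 genes were lower than with Ubx-WT, where 3.91% of all tested genes were. Of 23 tested genes of Wingless signalling 1 rose, fz2, and 1 fell, nkd, so that 8.7% were called, close to the share of all genes, and 3 were lower and 1 was higher than with Ubx-WT. The calls of tok, shn and nkd were lost without GFP replicate 3, among other libraries. The formin gene form3 rose by 1.71 (edgeR adjusted p = 0.00205) against 3.57. GstS1, a glutathione S-transferase gene, rose by 0.35 with Ubx-N51A against 2.33 with Ubx-WT, a call that was lost without GFP replicate 2, GFP replicate 3, Ubx-WT replicate 3, Ubx-N51A replicate 2 or Ubx-N51A replicate 3. Among transcription factor genes chosen after their values were seen, the zinc finger gene noc had 0.227, 0.306 and 0.195 CPM with GFP, 0.932, 0.887 and 0.987 with Ubx-N51A and 7.01, 6.12 and 6.58 with Ubx-WT. It rose by 1.97 with the mutant and by 4.77 with the wild type, and bowl, also a zinc finger gene, by 0.75 and 1.40. The 2 falls in which Ubx-WT lay farther were GstD3, at -0.52 against -0.89, and w, the ABC transporter gene white, at -0.49 against -1.11 (w is outside the rule for named genes, and its call was lost without GFP replicate 3).

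**Figure D3:**
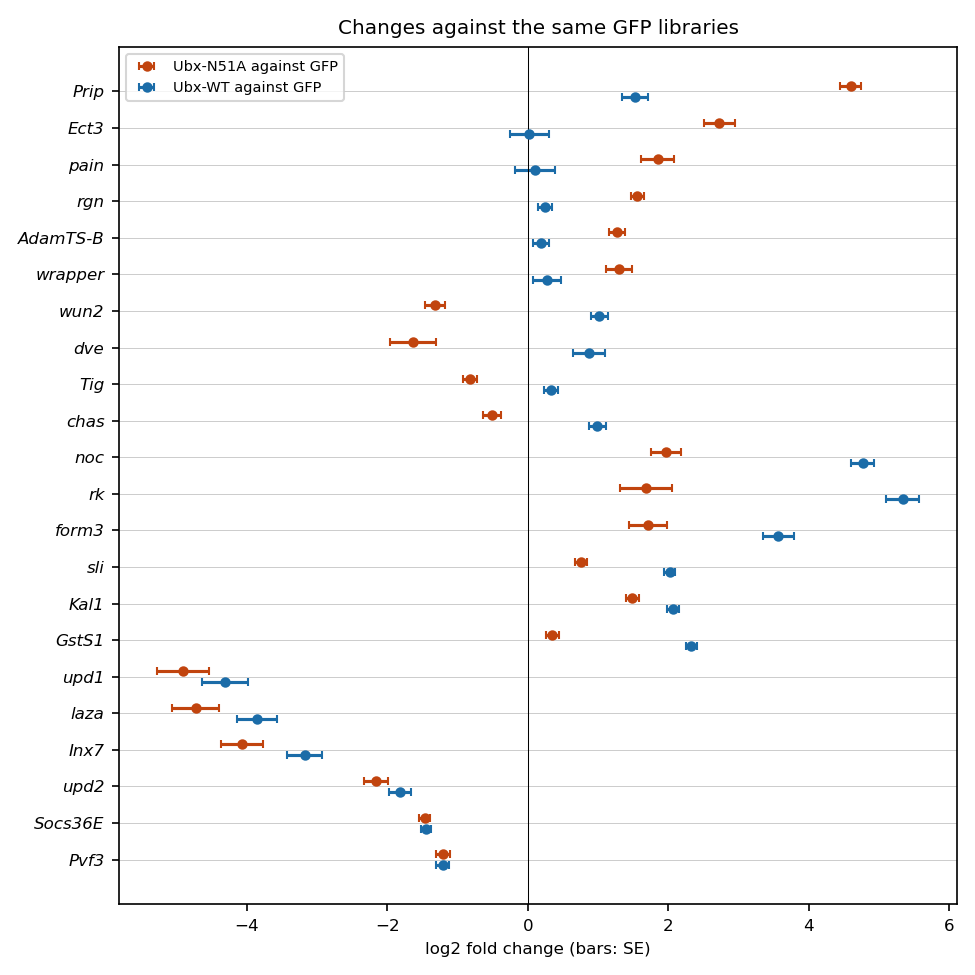
Points are log2 fold changes against the same 3 GFP libraries for Ubx-N51A (orange) and Ubx-WT (blue), with bars for the SE, in 22 genes from the 3 classes. From Prip to wrapper the mutant lies farther right, from wun2 to chas the proteins lie on opposite sides of 0, from noc to GstS1 the wild type lies farther right, and in the last 6 genes the difference between the proteins was not called.

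Most of the 648 genes without a called difference between the proteins were falls, and genes for secreted signals are among the largest of these. The 3 cytokine genes of the JAK-STAT pathway, upd1, upd2 and upd3, lie within a single stretch of the X chromosome, with 20757 bases between upd1 and upd3 and 33948 between upd3 and upd2. For upd1 (X:18305354-18309291) the libraries held 2.86, 2.83 and 4.82 CPM with GFP and 0.2, 0.108 and 0.0783 with Ubx-N51A, which is 6, 4 and 5 reads. Its log2 change of -4.91 (SE 0.37; edgeR adjusted p = 4.33e-06) therefore rests on few reads in the mutant. For upd2 they held 5.2, 5.45 and 7.14 against 0.932, 1.37 and 1.55 CPM, a fall of 2.16 on the log2 scale, and upd3 went from 8.29, 7.72 and 9.79 to 3.56, 3.55 and 4.02 CPM, a fall of 1.20. No library of GFP overlapped with one of Ubx-N51A in any of them, and GFP replicate 3 was the highest in each. CG6023, a gene near upd1 on the side away from upd3, fell as well (log2 change -3.05; edgeR adjusted p = 0.00114). Its summed reads were few, 80 in control cells and 9 in mutant cells. Beside the stretch of the 3 cytokine genes, then, 1 further gene with few reads was called lower.

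Downstream of these ligands, Socs36E, an inhibitor induced by the pathway, fell from 136, 135 and 168 CPM to 49.2, 52.8 and 56.3 (log2 change -1.47, SE 0.0768; edgeR adjusted p = 3.18e-07). The receptor gene dome fell by 0.39 and ken, a transcriptional repressor, by 0.15, a call lost without any library but Ubx-WT replicates 1 and 2. The kinase gene hop at -0.05 (edgeR adjusted p = 0.509) and the transcription factor gene Stat92E at 0.03 (edgeR adjusted p = 0.784) did not pass the test. In all, 6 of 14 tested genes of the pathway fell (42.9%, against 4.71% of all tested genes) and none rose, with a median of -0.08. Genes that fell had higher levels than all tested genes, and the part of level in the counts of any list was not tested. Against Ubx-WT none of the 14 was called, and upd1 differed by -0.60 (edgeR adjusted p = 0.691). Only 5.14% of all tested genes were called there, so none in a list of 14 does not show that the proteins acted alike.

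Gap junction genes fell as well. The innexin gene Inx7 went from 3.25, 3.52 and 5.64 CPM with GFP to 0.333, 0.215 and 0.219 with Ubx-N51A (log2 change -4.07, SE 0.294; edgeR adjusted p = 3.11e-06). Its neighbours ogre, 293 bases away, and Inx2, 5059 bases away, fell by 0.61 and 0.27 on the log2 scale, while bou, which overlaps ogre, changed by -0.28 (edgeR adjusted p = 0.378). Of 6 tested innexins 3 fell (50%, against 4.71% of all tested genes) and none rose. Their median was -0.47, and 1, Inx3, was lower than with Ubx-WT, where 3.91% of all tested genes were. The lipid phosphate phosphatase gene laza went from 3.41, 4.41 and 6.86 to 0.2, 0.188 and 0.172 CPM, a change of -4.73 (SE 0.331; edgeR adjusted p = 2.66e-06). Cpr49Ac, a cuticle protein gene, went from 200, 159 and 301 reads to 5, 1 and 10.

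Ligands of the receptor Pvr, which guides haemocytes, were lower too. Pvf3 went from 11, 11.8 and 13.8 to 5.66, 5.03 and 5.18 CPM (log2 change -1.21; edgeR adjusted p = 6.94e-06) and Pvf2, 13552 bases away, from 138, 142 and 168 to 87.9, 80.6 and 85.1 CPM (-0.82; edgeR adjusted p = 0.000101). The receptor gene Pvr itself fell by 0.16 on the log2 scale. With the opsonin genes Tep2 (-0.85) and Tep4 (-0.21) and the scavenger receptor gene Sr-CIV (-1.08), 6 of 22 tested genes of haemocyte identity and phagocytosis fell. None rose, and the median was -0.14. The share that fell was 27.3%, against 4.71% of all tested genes. Against Ubx-WT 3 of the 22 were lower, where 3.91% of all tested genes were. Of these Tep4 had also fallen against GFP, which places it beyond both groups (-0.20 against Ubx-WT; edgeR adjusted p = 0.0166). Without 1 library the call of Tep4 was lost for GFP replicates 1 and 2, that of Sr-CIV for GFP replicates 2 and 3 and Ubx-N51A replicates 2 and 3, and that of Pvr for every library but Ubx-WT replicates 1 and 2. The summed haemocyte markers given above overlapped between the groups.

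Humoral immunity gave 5 falls (16.1%, against 4.71% of all tested genes) and no rise in 31 tested genes, with a median of -0.05. The Imd pathway inhibitor gene pirk went from 42.6, 36.6 and 50.4 to 17.1, 16.4 and 17.7 CPM (log2 change -1.34; edgeR adjusted p = 4.71e-06), and the antimicrobial peptide genes CecA1, CecB and AttD fell by 1.78, 1.07 and 1.85. PGRP-SC2, an amidase that cleaves peptidoglycan, had 40, 41 and 82 reads with GFP and 1, 2 and 2 with Ubx-N51A. Of 18 heat shock and chaperone genes 5 fell (27.8%, against 4.71% of all tested genes) and none rose, with a median of -0.19. Hsp70Bb went from 382, 417 and 535 to 143, 148 and 138 CPM, a fall of 1.63, although reads of the near-identical Hsp70 copies may have been divided among them. The call of Hsp83 at -0.26 was lost without GFP replicate 1, GFP replicate 2, Ubx-N51A replicate 1 or Ubx-N51A replicate 2.

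The list with the highest share of falls was that of the nucleolus and ribosome production, where 18 of 34 tested genes fell and none rose. That is 52.9%, against 4.71% of all tested genes. The falls were under 1.5-fold, and the median of the list was -0.19. The snoRNP gene nop5 went from 234, 222 and 218 to 185, 168 and 176 CPM (log2 change -0.35; edgeR adjusted p = 0.00177), and the snoRNP methyltransferase gene Fib, the nucleolar chaperone gene Nopp140 and the RNA polymerase I subunit gene Polr1A fell by 0.33, 0.25 and 0.22, the last a call lost without GFP replicate 2. Against Ubx-WT none of the 34 was called, where 5.14% of all tested genes were, which does not show that the proteins acted alike. In JNK signalling and apoptosis 5 of 23 genes fell and 2 rose (30.4% called, against 8.09% of all tested genes), and 2 were lower than with Ubx-WT (3.91% of all tested genes were). They include the transcription factor gene Ets21C (-0.50) among the falls and wgn, a TNF receptor gene, among the rises (0.50; edgeR adjusted p = 0.000778).

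**Figure D4:**
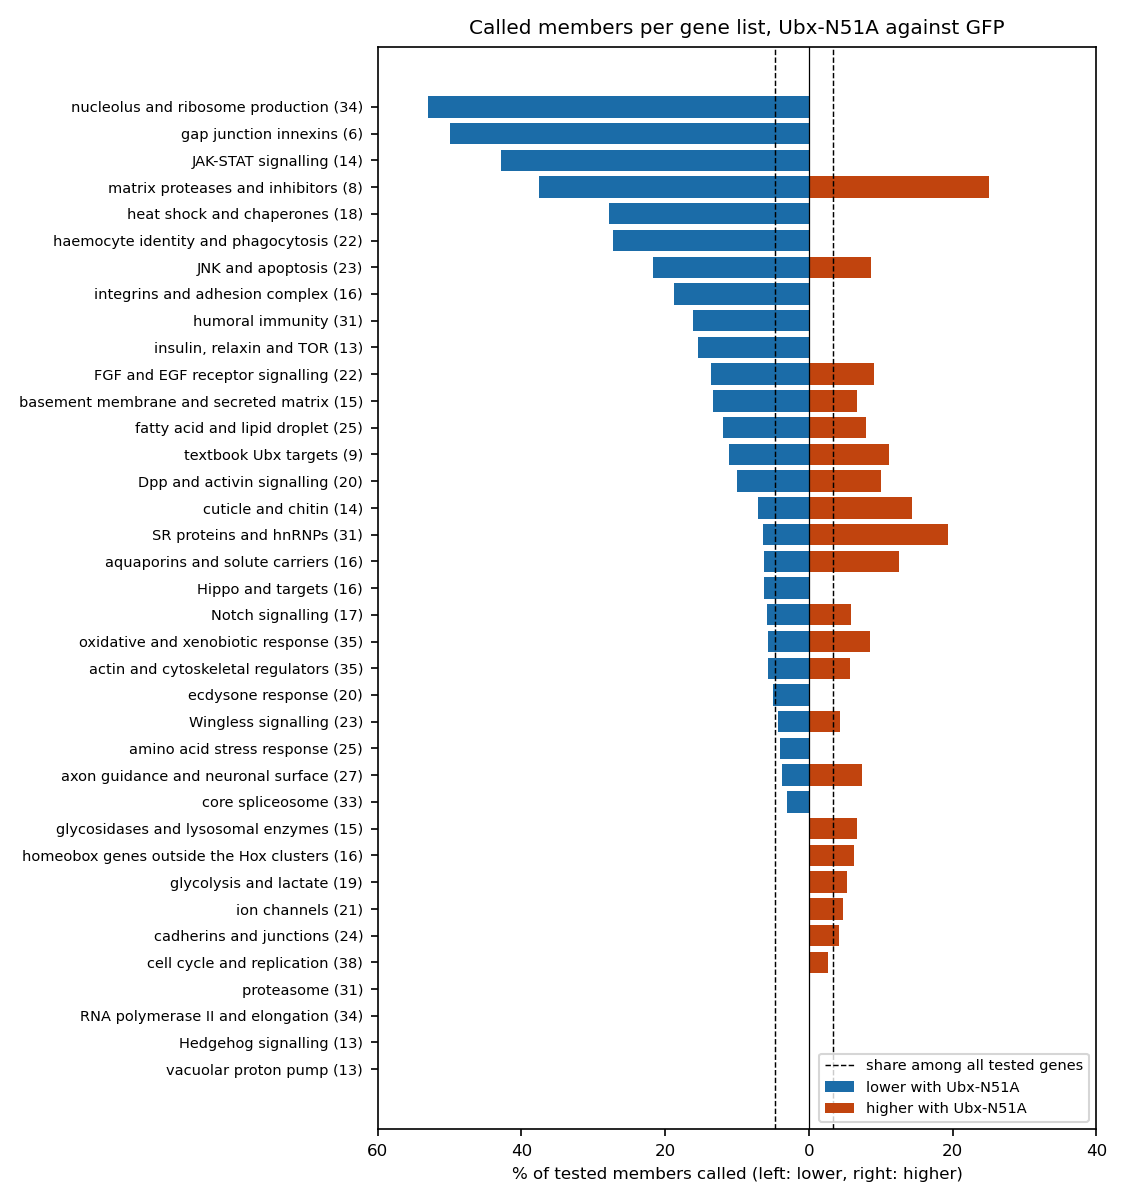
Bars give the percentage of tested members called lower (left) or higher (right) with Ubx-N51A against GFP for each gene list with 5 or more tested genes, whose number stands in parentheses, and the dashed lines mark the shares among all tested genes, 4.71% lower and 3.38% higher. Falls without rises fill the nucleolus, innexin and JAK-STAT bars, while the lists at the bottom hold no called gene.

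Among rises that did not differ from Ubx-WT past the threshold were genes of receptors, adhesion and RNA binding. The FGF receptor gene htl went from 0.114, 0.178 and 0.078 to 1.03, 0.726 and 0.767 CPM (log2 change 2.76; edgeR adjusted p = 0.00058) and the N-cadherin gene CadN from 0.25, 0.178 and 0.234 to 1.03, 1.42 and 1.53 (2.60; edgeR adjusted p = 2.27e-05). The FGF ligand gene bnl rose by 0.23. Among 31 tested genes of SR proteins and hnRNPs 6 rose and 2 fell (25.8% called, against 8.09% of all tested genes), with a median of 0.01. The splicing regulator gene mbl went from 58.3, 62.1 and 65.5 to 74.7, 81.4 and 73.1 CPM, a rise of 0.30 (edgeR adjusted p = 0.00663). The KH-domain gene mub rose by 0.21, and Syp (0.37), bru1 (1.12) and Rbfox1 (0.23) were named after their values were seen. The calls of Syp and Rbfox1 were lost without GFP replicate 1 or 2 or Ubx-N51A replicate 1 or 2, and that of bru1 without any GFP replicate or Ubx-N51A replicate 2 or 3. The sixth rise, of the hnRNP gene sm at 0.31, belongs to the genes in which Ubx-WT lay farther from GFP (0.52), and Ubx-N51A was below Ubx-WT there (log2 difference -0.20; edgeR adjusted p = 0.0328). Both falls, Hrb98DE at -0.15 and HnRNP-K at -0.16, kept their calls in 2 of the 9 fits that each left out 1 library, which for both were those without Ubx-WT replicate 1 and Ubx-WT replicate 2.

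Counts for further gene groups follow, beside a share of 8.09% called among all tested genes. Of 33 core spliceosome genes 1 fell (3.03%), the U2 snRNP gene Sf3b3 (-0.26), and of 34 genes of RNA polymerase II and elongation, 31 of the proteasome, 13 of the vacuolar proton pump and 13 of Hedgehog signalling none was called. Lists of 13 genes are too short for a count of 0 to stand out from 8.09%. Among 38 genes of the cell cycle and replication the phosphatase gene stg rose by 0.27, a call lost without GFP replicate 3 or Ubx-N51A replicate 1. Of 9 tested textbook targets of Ubx, a list that includes Ubx, the immunoglobulin-domain gene Ama fell (-1.14) and no gene but Ubx rose. That is 22.2% called, with Ubx itself counted. Of 16 tested homeobox genes outside the Hox clusters 1 rose, zfh2, at 0.61 (6.25% called), and 4 were lower than with Ubx-WT, where 3.91% of all tested genes were. That list does not hold the homeodomain gene dve, whose fall is given above. The call of zfh2 was lost without GFP replicate 1, GFP replicate 2, Ubx-N51A replicate 1 or Ubx-N51A replicate 2. In axon guidance and the neuronal surface 2 of 27 rose, Kal1 and sli, while 1 fell (11.1% called). In that list 5 genes were lower than with Ubx-WT, where 3.91% of all tested genes were.

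Transcripts of the mitochondrial genome were the exception by chromosome, with 5 of 16 tested genes called higher (31.2%), against 7.26% to 8.87% of genes called on the X and the major autosomal arms. They took 1.92%, 3.06% and 3.43% of the reads with GFP and 5.87%, 4.12% and 4.11% with Ubx-N51A. The lowest share was in GFP replicate 1 and the highest in Ubx-N51A replicate 1. Of the called genes, mt:CoIII and mt:ND1, for subunits of cytochrome oxidase and of complex I, were higher by 0.70 and 1.07. Each of the 5 calls was lost in at least 3 of the 9 fits that left out 1 library, among them those without GFP replicate 1, GFP replicate 2 or Ubx-N51A replicate 1. With the mitochondrial genome left out of the library sizes and the test, 776 genes were called.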

How the data were processed

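Each library has 1 deposited file of raw counts by FlyBase identifier, as the authors made it. Its 5 closing rows are no genes and were set aside (unassigned reads 1.5% to 2.27%, ambiguous reads 3.11% to 3.32%, reads not aligned uniquely 3.26% to 5.05%). Per the labels, RNA was poly(A)-selected and directional libraries were read as 75 bp single ends. The submitters' processing notes name STAR, HTSeq, Trimmomatic 0.36, FastQC, DESeq2 and DESeq, and the builds BDGP6 and dm6. The strand setting of the counting was not given in the sources used here. Overlapping genes can therefore share counted reads, which touches 61 of the 102 named genes, 53 of them on opposite strands. Symbols and positions came from Ensembl 115 (BDGP6.54) for 17253 of 17559 genes. Of 1114 list entries 52 matched through a synonym and 54 found no match.

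R 4.3.3 with edgeR 4.0.16 was used on the counts as deposited. Genes kept by filterByExpr numbered 9207, TMM factors ran from 0.971 to 1.03, and all 9 libraries entered 1 quasi-likelihood fit with the group as its only term (biological coefficient of variation 5.41%). An adjusted p under 0.05 (Benjamini-Hochberg, all tested genes) made a call, and the SE is the absolute log2 fold change divided by the root of F. On simulated counts of Ubx-N51A against GFP over 9088 genes, 99.2% of the changes of 2-fold or more and 72% of those of 1.25-fold were recovered, with 7.29% false calls. Changes were put into 200 genes, none at the lowest levels, and none was under 1.25-fold. These rates therefore do not cover called genes at low levels or smaller changes, and the median called fall was -0.23 on the log2 scale. Replicates of a group differed by more than sampling noise (chi-square per degree of freedom at least 6.76).

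Members and gene lists were chosen with earlier results of these data known. Named genes are Ubx, Prip, Ect3 and upd1, then, among called genes with a proper symbol at 2 CPM or more in the higher group and with separate groups, the 15 largest rises and 15 largest falls, the 8 largest per direction beyond both other groups, and up to 3 called members per list and direction. Neighbouring genes, uncalled members and further list members were named after their values were seen. Alternatives were DESeq2 1.42.0, its size factors in edgeR, no filter, 6 libraries only, no mitochondrial genome, a replicate block and leaving out each library. Of the 102 named genes 70 kept their call without any 1 library, as did 288 of all 745.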

Additional observations from a re-analysis of the deposited data

How the results depend on the processing

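The calls of Ubx-N51A against GFP numbered 749 with DESeq2's size factors, 953 without the filter on low counts, 951 with DESeq2, 715 in a fit of the 6 libraries compared and 776 without the mitochondrial genome, where 745 were reported. Genes beyond both other groups rose from 61 to 93 without the filter, which tests more genes. With the replicate number as a block, 607 genes were called, 247 higher and 360 lower, with 46 beyond both groups. Libraries of Ubx-N51A and GFP with the same number deviated at correlations of -0.304, -0.196 and -0.272. These numbers are those of the sample titles, and the file names number some libraries otherwise. The correlations and the block therefore cannot show whether the original replicates were paired. With 1 library left out, the calls ran from 362 to 823 against GFP (362, 440 and 490 without GFP replicates 2, 1 and 3, and 398 without Ubx-N51A replicate 2), from 302 to 474 against Ubx-WT (302 without Ubx-WT replicate 3) and from 990 to 1741 for Ubx-WT against GFP (990 without Ubx-WT replicate 3, 1015 without GFP replicate 2). Changes of at least 2-fold ran from 75 to 101, from 173 to 219 and from 286 to 348. Genes beyond both groups ran from 29 to 59, those with Ubx-WT farther from 18 to 39 (18 without Ubx-N51A replicate 2, 19 for GFP replicate 2, 23 for Ubx-WT replicate 3), and those not called between the proteins from 311 to 743 (311, 373 and 416 without GFP replicates 2, 1 and 3, and 350 without Ubx-N51A replicate 2). The causes were not tested. No result changed its direction in these alternatives. Of the 102 named genes, 3 lost their call with DESeq2, 9 with 6 libraries, 11 with the block and up to 26 without 1 library. At about 31 reads per CPM in the shallowest library, folds of genes near 0.1 CPM rest on few reads.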
